A study of Homo sapiens with 4 samples.

Results

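The mRNAs of 10 cleavage and polyadenylation factors were examined in RNA immunoprecipitation sequencing (RIP-seq) of KIAA1429: CPSF1, CPSF2, CPSF3, CPSF4, WDR33, NUDT21, CPSF6, CPSF7, CSTF1 and CSTF3. They were chosen by gene name for their function in 3′ end processing, and all 10 were found among the 13300 gene names in the files, with 31 of the 34975 listed transcripts. In RIP-seq, a protein is pulled from a cell lysate with an antibody and the RNAs bound to it are sequenced. The cells were HCCLM3, an established line of human hepatocellular carcinoma, and of the 4 libraries 2 replicates were precipitated with an antibody against KIAA1429 (KIAA1429 RIP) and 2 with normal IgG (IgG RIP). No gene was altered and no agent was given in either group according to the labels, and nothing states that the replicates came from separate cultures, so the p-values measure the spread between these libraries only. The values are FPKM, the number of fragments per kilobase of transcript, scaled to the mapped fragments of the library, so levels of different genes can be set side by side. Pairs of values are given with replicate 1 first.

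Most human mRNAs receive their 3′ end by cleavage of the precursor RNA followed by addition of a poly(A) tail. The cleavage and polyadenylation specificity factor (CPSF) reads the AATAAA signal (AAUAAA in the RNA) upstream of the cut, and its CPSF3 subunit is the endonuclease. Cleavage factor I (CFIm), made of NUDT21 with CPSF6 or CPSF7, binds UGUA motifs and takes part in the choice between alternative ends, and the cleavage stimulation factor (CstF) binds GU-rich sequence downstream of the cut. KIAA1429 (VIRMA) is a subunit of the m6A methyltransferase complex, and its protein is known to associate with the NUDT21 and CPSF6 proteins. The RIP-seq files measure which mRNAs came down with KIAA1429, not which proteins did.

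The FPKM values summed to between 295573 and 340300 per library, and the depth in reads is unknown. Of the hepatocyte and epithelial markers ALB, AFP, APOA1, TTR, SERPINA1, FGB, KRT8 and KRT18, all were listed, with the lowest at 7.66 FPKM (TTR) in a library and the highest at 1048 FPKM (KRT18). Of the markers of other cells, PTPRC, PECAM1 and COL1A1 were not listed, while CD68, known as a macrophage marker, was at 34.5 and 72.2 FPKM in the IgG RIP libraries, compared with 28.7 and 43.9 FPKM in those of KIAA1429 RIP. VIRMA mRNA itself had 17.95 and 10.01 FPKM in the 2 IgG RIP libraries, against 18.2 and 11.6 FPKM in the 2 of KIAA1429 RIP. Across the 11361 gene totals with a mean of at least 1 FPKM, Spearman's rho was 0.849 within IgG RIP, 0.872 within KIAA1429 RIP and from 0.833 to 0.885 between groups, and across 23375 transcripts it was 0.487, 0.541 and from 0.486 to 0.537, respectively. Values of single transcripts were thus less alike between replicates than gene totals.

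None of the 10 factor mRNAs passed the test for enrichment or depletion in KIAA1429 RIP. Each gene total, the sum over the listed transcripts of a gene, was compared as log2(FPKM + 1) with limma over all 11361 gene totals, and a gene was called where the adjusted p was under 0.05 and the log2 fold change exceeded 1 in size. On that scale 7 of the 10 had a positive log2 fold change and 3 a negative one. Over all gene totals, 5844 were above 0 and 5517 below. The median was 0.25 for the members beside 0.017 over all gene totals. The members' median was 0.17 with the most abundant transcript of each gene and 0.096 with the length-weighted totals described further on. The values ranged from -0.69 for CPSF1 to 0.93 for CPSF4, and the adjusted p from limma was 0.998 for each of the 10. Of all gene totals, 0.0% were called higher and 0.0% lower, with a lowest adjusted p of 0.515. At an unadjusted p under 0.05 from limma, 0 of the 10 were higher and 0 lower, where 3.17% of all gene totals were higher and 1.43% lower. This scale understates the change of low genes. In bulk precipitates, a difference in the number of cells that hold an mRNA and in its amount per cell cannot be told apart.

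**Figure D1:**
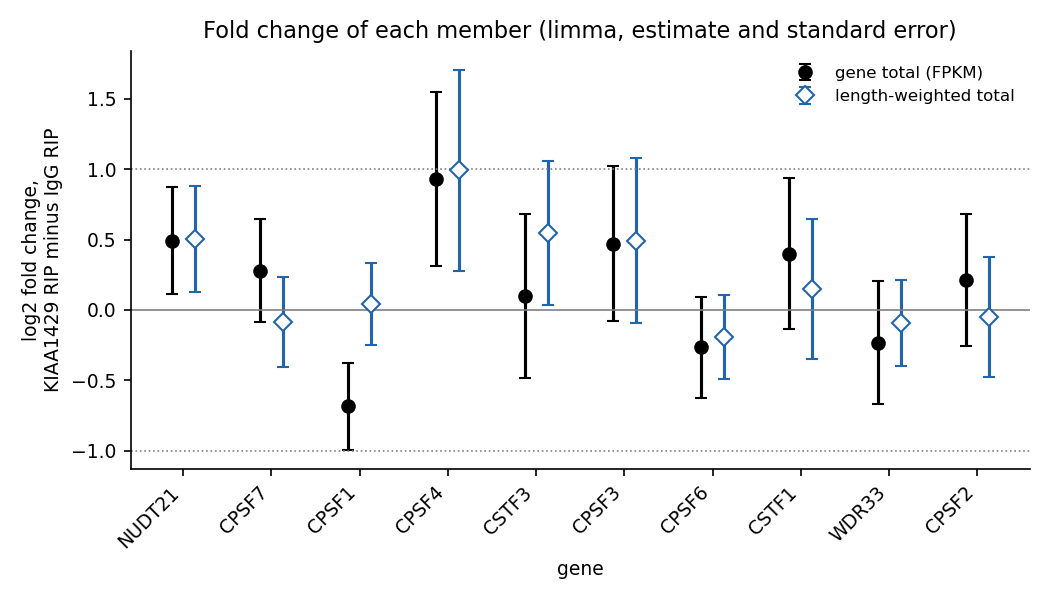
Log2 fold change of each gene, KIAA1429 RIP minus IgG RIP, from limma with its standard error (n = 2 libraries per group), for gene totals on log2(FPKM + 1) (filled circles) and for length-weighted totals, the sum of FPKM times transcript length in kilobases, on log2(total + 1) (open diamonds). Dotted lines mark a log2 fold change of 1 in either direction. CPSF4 has the highest log2 fold change and CPSF1 the lowest by gene total, and CPSF1 lies at 0.042 by its length-weighted total.

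The groups overlapped in 8 of the 10 gene totals. In 0 members were both KIAA1429 RIP libraries above both IgG RIP libraries, as was the case for 16.6% of all gene totals, and in 2 members, CPSF1 and CPSF6, both were below, as for 15.2% of all gene totals. No member had a mean at least 2-fold apart between the groups, against 7.58% of gene totals that were higher by that margin and 6.14% that were lower. With 2 libraries against 2, an exact two-sided permutation test on 1 gene has p = 0.333 as its smallest value.

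The direction of 6 of the 10 (CPSF2, CPSF3, CPSF4, WDR33, CSTF1 and CSTF3) depended on which IgG RIP library they were set against. Replicate 2 of IgG RIP was the lowest library for 6 of the 10 (NUDT21, CPSF4, CSTF3, CPSF3, CSTF1 and CPSF2), and replicate 1 of IgG RIP was the highest for 6 (CPSF4, CSTF3, CPSF6, CSTF1, WDR33 and CPSF2). Among the 4492 gene totals with means in the members' range, 34.6% were lowest in replicate 2 of IgG RIP and 33.0% highest in replicate 1. Without replicate 1 of IgG RIP, the median log2 fold change of the members was 0.74, and without replicate 2 it was -0.29. The KIAA1429 RIP libraries also moved the median, to -0.11 without replicate 1 and to 0.60 without replicate 2, and leaving out 1 of them turned the direction of CPSF3, CPSF7, CSTF3 and WDR33. In each group replicate 1 was the higher library for 8 of the 10 members. It was so for 60.6% of the gene totals in their range in IgG RIP and for 53.7% in KIAA1429 RIP. For CPSF1 in KIAA1429 RIP the values were nearly equal, at 15.1901 and 15.1879 FPKM. The median absolute difference between the IgG RIP replicates on the log2(FPKM + 1) scale was 0.91 for the members and 0.47 for the gene totals in their range, and between the KIAA1429 RIP replicates it was 0.38 for both.

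**Figure D2:**
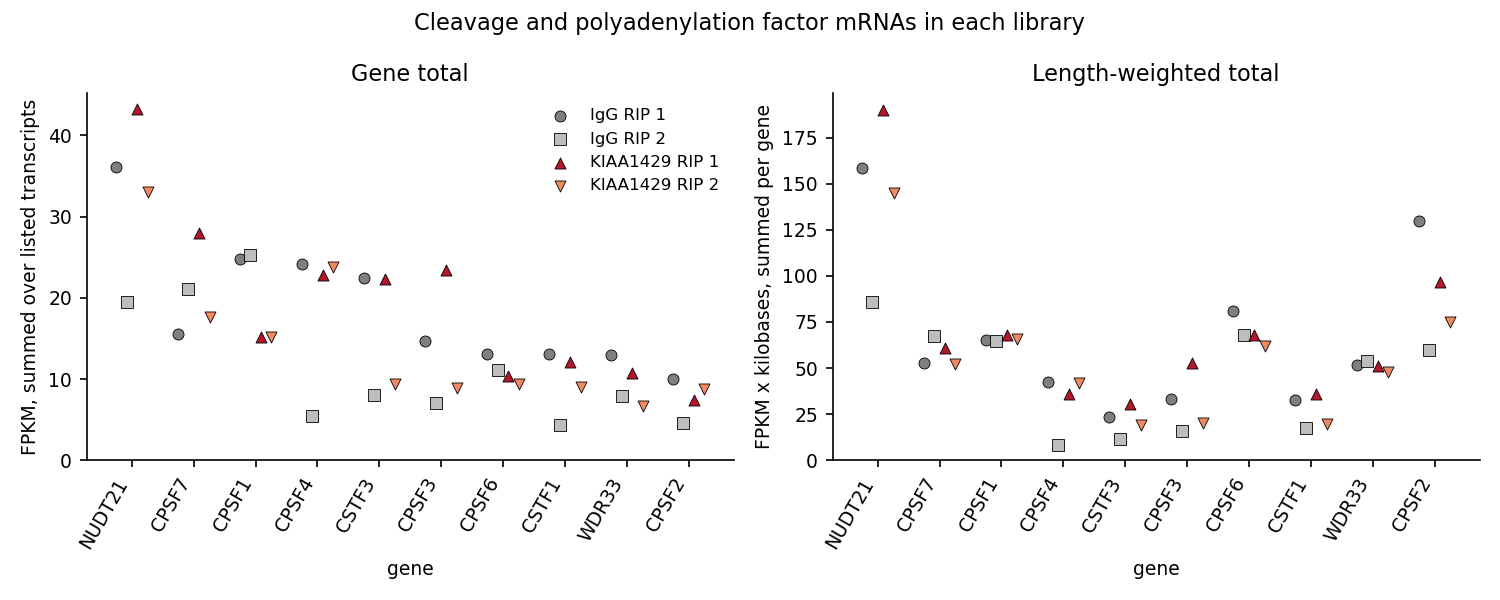
Level of each gene in each library as the gene total in FPKM (left) and as the length-weighted total, FPKM multiplied by transcript length in kilobases and summed per gene (right), with genes ordered by their mean FPKM. Grey circles and squares are the IgG RIP replicates 1 and 2, and red and orange triangles the KIAA1429 RIP replicates 1 and 2. IgG RIP replicate 2 is the lowest point for 6 genes on the left, and the 4 points of CPSF1 and of WDR33 draw together on the right.

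By mean FPKM over the 4 libraries, the order was NUDT21 (33.0), CPSF7 (20.6), CPSF1 (20.1), CPSF4 (19.1), CSTF3 (15.5), CPSF3 (13.5), CPSF6 (10.96), CSTF1 (9.65), WDR33 (9.57) and CPSF2 (7.69). The ranges over the libraries overlapped for each of the 9 pairs of neighbours in this order, and were apart for 12 of all 45 pairs of members, in each of which NUDT21, CPSF7 or CPSF1 was the higher gene. The level of CPSF1 includes CPSF1-207, a short transcript described further on. Without it, a setting chosen after seeing the data, CPSF1 had a mean of 13.7 FPKM. Its range was then 12.4 to 15.2 FPKM, which overlaps those of CPSF6, CSTF1 and WDR33. NUDT21 lay above 85.6% of all gene totals and CPSF2 above 46.1%. All 4 libraries are precipitates, so these are levels in precipitates and not in the cells. The 3 CFIm genes summed to 64.8 and 51.7 FPKM after IgG precipitation and 81.6 and 59.98 FPKM after KIAA1429 precipitation, the 5 CPSF genes to 86.6 and 50.3 against 79.6 and 63.4 FPKM, and the 2 CstF genes to 35.5 and 12.4 against 34.4 and 18.4 FPKM. In each of these sums the groups overlapped.

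The ends of these mRNAs are shown here because several listed transcripts of a gene differ by where they end. Within the last 50 bases of the 20 protein-coding member transcripts with a complete annotated end, AATAAA was found in 11 (55.0%, against 55.4% of 22640 such listed transcripts), ATTAAA without AATAAA in 1 (5.0%, against 13.2%) and neither in 8 (40.0%, against 31.4%). TGTA, the DNA form of the UGUA motif, occurred at least once in the last 100 bases of 13 of the 20 (65.0%, against 51.1%) and at least 2 times in 3 (15.0%, against 19.0%). The motifs were searched on the transcribed strand only and may overlap. A match is a description of the letters and not a site in use. The windows below, from GRCh37 and read 5′ to 3′ on the strand of the gene, hold the AATAAA nearest the annotated end, in capitals:
NUDT21-201 (chr16:56463050-56463079, minus strand): tattgtcatttcAATAAAaaatatttgaaa
CPSF6-201 (chr12:69663689-69663718, plus strand): atgtagtgttgtAATAAActgtttaatggg
CPSF6-202 (chr12:69668104-69668133, plus strand): tcttgtattgaaAATAAAacaaacttttga
CPSF7-205 (chr11:61170206-61170235, minus strand): tgaaaattgtgtAATAAActtgatgacgct
CPSF7-201 (chr11:61170131-61170160, minus strand): atatttttaaatAATAAAtggggtgtgagc
CSTF3-201 (chr11:33106132-33106161, minus strand): agtcctttaaaaAATAAAaggattcagaaa
Counted from the end in the GENCODE annotation, which for CPSF7-205 differs slightly from that in the files, the capitals begin 23 bases from the end in NUDT21-201, CPSF6-202 and CPSF7-205, and from 19 bases (CPSF6-201) to 36 bases (CPSF7-201) from it in the others.

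NUDT21 encodes the CFIm subunit that binds UGUA. Its mRNA had the highest mean FPKM of the 10 in these precipitates. It was at 36.1 and 19.5 FPKM in the IgG RIP libraries, compared with 43.2 and 33.0 FPKM in those of KIAA1429 RIP. The group means were 27.8 ± 11.8 and 38.1 ± 7.25 FPKM (SD, n = 2). The highest library was a KIAA1429 RIP replicate and the lowest an IgG RIP replicate, but the other IgG RIP library lay between the KIAA1429 RIP ones. The log2 fold change was 0.49 with a standard error of 0.38, and it stayed above 0 when each library was left out in turn (0.06 to 0.92). NUDT21 is listed with 1 transcript, NUDT21-201 (chromosome 16, 56463045 to 56485287, minus strand, 7 exons), so no shift of reads between listed transcripts enters its value. In the GENCODE annotation, 2724 of its 4393 exonic bases (62.0%) are also exonic in ENSG00000288725 on the same strand, which the files do not list, and reads from these bases could belong to either.

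CPSF6 encodes the CFIm subunit that pairs with NUDT21 and carries an arginine and serine rich domain. Its total was 13.1 and 11.1 FPKM in the 2 IgG RIP libraries, against 10.3 and 9.37 FPKM in the 2 of KIAA1429 RIP. Both KIAA1429 RIP libraries lay below both IgG RIP libraries, by a log2 fold change of -0.27 with a standard error of 0.36. It was -0.16 without replicate 1 of IgG RIP, and the length-weighted totals overlapped, at 80.9 and 67.9 for IgG RIP against 68.03 and 61.7 for KIAA1429 RIP. Part of this gap was CPSF6-201 (chromosome 12, 69633396 to 69663719, plus strand), which ends 4419 bases before CPSF6-202 and was named after its values were seen. It was at 1.18 and 1.15 FPKM in IgG RIP and listed at 0 in both KIAA1429 RIP libraries, under the filter of a mean of 1 FPKM for the transcript test. CPSF6-202, the main transcript with 6584 bases, had 11.9 and 9.93 FPKM after IgG precipitation and 10.3 and 9.37 FPKM after KIAA1429 precipitation, and these ranges overlap. CPSF6-201 and CPSF6-202 share 2118 bases, 95.0% of CPSF6-201. Its coding sequence of 1764 bases is longer by 111 bases than that of CPSF6-202, and each of the 2 ends has an AATAAA in the windows above.

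CPSF7, the alternative partner of NUDT21, had 15.6 and 21.1 FPKM in the IgG RIP libraries, compared with 28.003 and 17.6 FPKM in those of KIAA1429 RIP. The groups overlapped, with a log2 fold change of 0.28 and a standard error of 0.37, and the value was -0.040 without replicate 1 of KIAA1429 RIP. With protein-coding transcripts only, it was 0.00037. The 7 listed transcripts showed a different make-up in 1 library. CPSF7-205 (chromosome 11, 61170203 to 61197486, minus strand), which holds the annotation's reference coding sequence of 1386 bases, was at 13.9 and 18.3 FPKM in IgG RIP and at 13.5 FPKM in replicate 2 of KIAA1429 RIP, but at 0.332 FPKM in replicate 1. In that replicate CPSF7-201, whose coding sequence is longer by 156 bases, was at 14.0 FPKM, against 0.541 FPKM and a listed 0 in IgG RIP and a listed 0 in replicate 2 of KIAA1429 RIP. These transcripts share 3425 bases, 92.7% of CPSF7-201. The same replicate also listed CPSF7-208, CPSF7-225 and CPSF7-209, named after their values were seen, at 4.32, 3.69 and 5.62 FPKM, where the other libraries were at 0 or at 0.000112 FPKM. CPSF7-225 and CPSF7-209 are of the type processed_transcript, so the protein-coding value leaves them out. The log2 fold changes were -1.95 for CPSF7-205 and 1.64 for CPSF7-201, with standard errors of 1.20 and 1.47 and an adjusted p of 0.879 each from limma over 23375 transcripts. In CPSF7 the difference between the KIAA1429 RIP replicates exceeded that between the groups.

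CPSF1 encodes the largest CPSF subunit, the scaffold that holds the signal-reading subunits. Its gene total separated the groups most clearly among the 10, with 24.7 and 25.3 FPKM in IgG RIP and 15.2 FPKM in both KIAA1429 RIP libraries, or 25.03 ± 0.432 and 15.2 ± 0.00153 FPKM (SD, n = 2). The log2 fold change was -0.69 with a standard error of 0.31, an unadjusted p of 0.0613 and an adjusted p of 0.998 from limma. The gap was carried by CPSF1-207 (chromosome 8, 145618444 to 145619656, minus strand), a transcript of 704 bases in 6 exons at the 3′ end of the gene. CPSF1-207 had 12.1 and 13.0 FPKM in IgG RIP, 48.7% and 51.2% of the gene total, and was listed at 0 and at 0.621 FPKM in KIAA1429 RIP. Its log2 fold change was -3.41 with a standard error of 0.56, an unadjusted p of 0.00212 and an adjusted p of 0.514 from limma. This was the lowest p of the 21 member transcripts tested.

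Without CPSF1-207, a setting chosen after seeing the data, CPSF1 had 12.7 and 12.4 FPKM in the 2 IgG RIP libraries, against 15.2 and 14.6 FPKM in the 2 of KIAA1429 RIP. The groups then lay apart in the opposite direction, with a log2 difference of 0.23 in place of -0.69. CPSF1-212, the full-length transcript with 4480 bases, had 6.49 and 11.6 FPKM after IgG precipitation and 14.1 and 9.13 FPKM after KIAA1429 precipitation, and CPSF1-213, named after its values were seen, had 6.19 and 0.772 against 1.06 and 5.43 FPKM. In the annotation, 671 of the 704 bases of CPSF1-207 (95.3%) also belong to CPSF1-212. The other 33 bases are the part of CPSF1-207 that CPSF1-212 lacks.

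Because FPKM divides by transcript length, a fragment assigned to a short transcript adds more to a gene total than the same fragment assigned to a long one. FPKM was therefore multiplied by the annotated transcript length in kilobases and summed per gene, which gives a length-weighted total proportional to the fragments of the gene, for the 33938 listed transcripts found in the annotation (97.0%). This scale was chosen after seeing the data. The length-weighted total of CPSF1 was 65.2 and 64.5 in IgG RIP, with 68.0 and 65.6 in KIAA1429 RIP, a log2 fold change of 0.042 with a standard error of 0.29. The means were 64.8 ± 0.438 and 66.8 ± 1.72 (SD, n = 2). The group means differed 1.03-fold on this scale, while the share assigned to CPSF1-207 fell from 49.98% of the mean FPKM total in IgG RIP to 2.04% in KIAA1429 RIP. On this scale CPSF1 was above in both KIAA1429 RIP libraries and WDR33 below, where 16.1% of 12006 genes were above and 14.6% below. In 0 members did the length-weighted means differ at least 2-fold, where 7.91% of genes were higher and 7.34% lower by that margin.

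**Figure D3:**
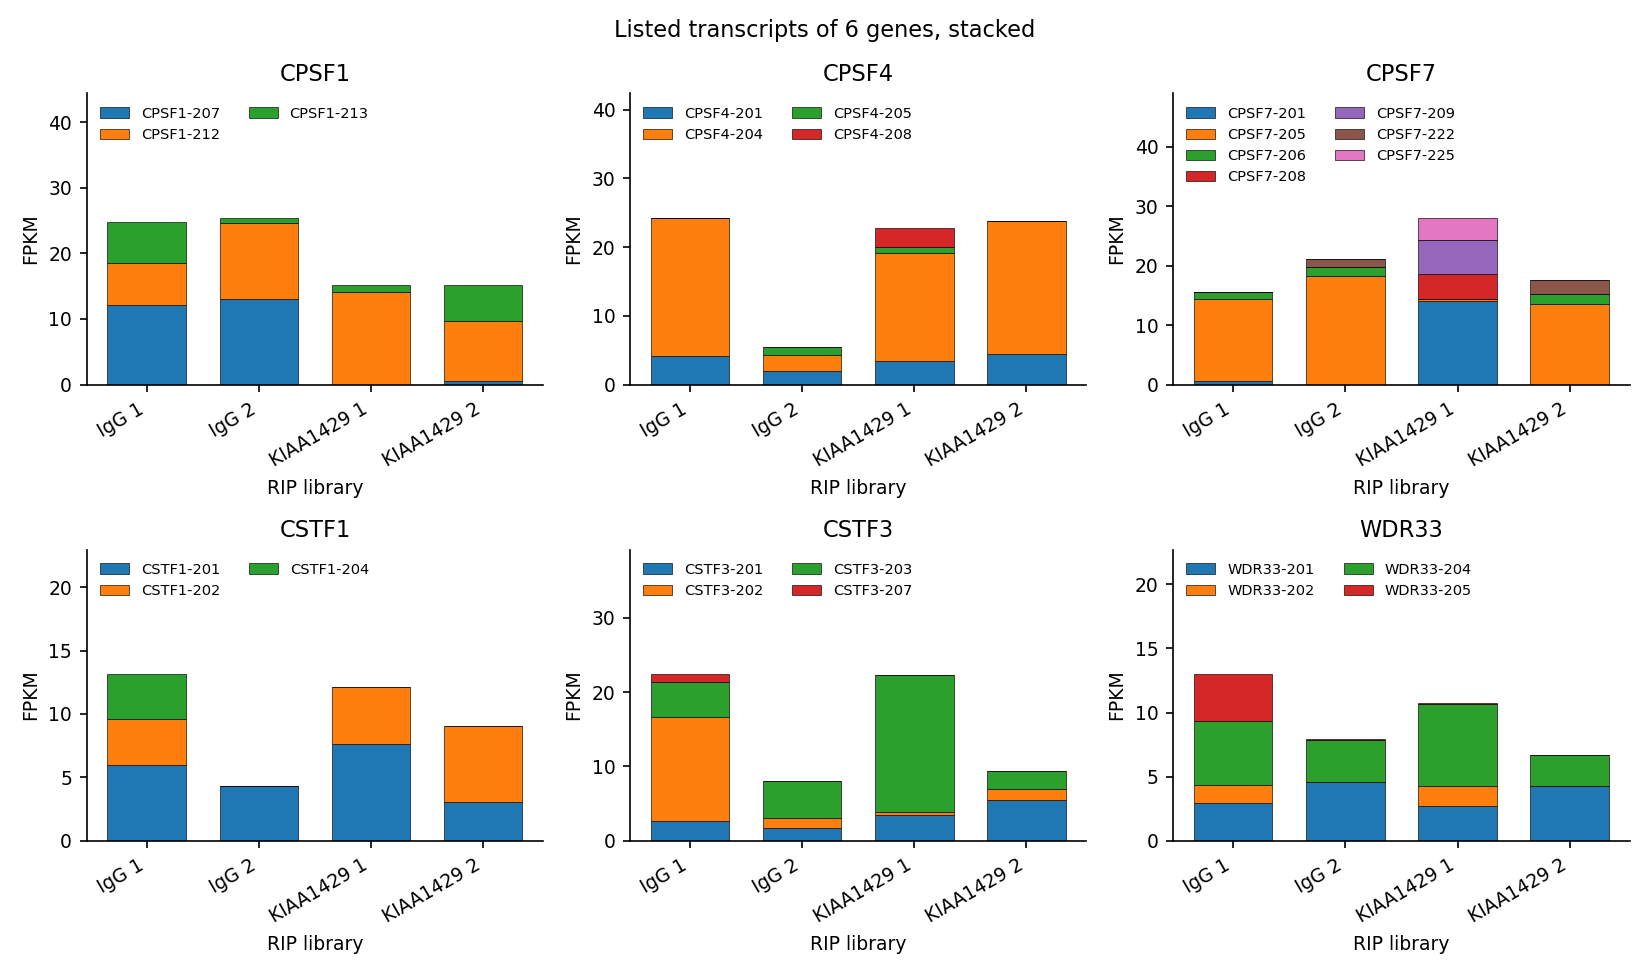
FPKM of each listed transcript of CPSF1, CPSF4, CPSF7, CSTF1, CSTF3 and WDR33 in the 4 RIP libraries, stacked so that the height of a bar is the gene total. CPSF1-207 fills 48.7% and 51.2% of the IgG RIP bars and at most 4.09% of a KIAA1429 RIP bar, and CPSF7-201 takes the place of CPSF7-205 in KIAA1429 RIP replicate 1.

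CPSF4 and WDR33 encode the CPSF subunits that contact the AATAAA signal. CPSF4 had 24.2 and 5.45 FPKM in the IgG RIP libraries, compared with 22.9 and 23.8 FPKM in those of KIAA1429 RIP. Replicate 1 of IgG RIP was at the level of KIAA1429 RIP and replicate 2 was 4.45-fold lower than replicate 1, the widest gap between replicates among the 10 genes. The log2 fold change of 0.93 (standard error 0.62), the highest of the members, rested on that library, and without it the value was -0.051. CPSF4-204 (chromosome 7, 99036545 to 99054965, plus strand), whose coding sequence is 75 bases shorter than that of CPSF4-201, was the larger part. It had 20.1 and 2.28 FPKM in the 2 IgG RIP libraries, against 15.8 and 19.4 FPKM in the 2 of KIAA1429 RIP. CPSF4-201, the reference transcript, had 4.11 and 1.96 FPKM after IgG precipitation and 3.36 and 4.40 FPKM after KIAA1429 precipitation. The share of CPSF4-204 in the total was 83.0% and 41.8% in IgG RIP, compared with 69.1% and 81.5% in KIAA1429 RIP. CPSF4-205 and CPSF4-208, both named after their values were seen and with incomplete annotated ends, had at most 2.83 FPKM in a library.

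WDR33 had 13.0 and 7.91 FPKM in the IgG RIP libraries, compared with 10.7 and 6.70 FPKM in those of KIAA1429 RIP, a log2 fold change of -0.23 with a standard error of 0.44. The groups overlapped. By length-weighted total the libraries were closer, at 51.6 and 54.0 in IgG RIP, with 50.97 and 48.1 in KIAA1429 RIP, and the difference between IgG RIP replicates fell from 1.64-fold to 1.05-fold. The full-length WDR33-201 (chromosome 2, 128458596 to 128568721, minus strand, 22 exons) had 2.97 and 4.61 FPKM in the 2 IgG RIP libraries, against 2.67 and 4.28 FPKM in the 2 of KIAA1429 RIP. WDR33-204, which ends 61511 bases upstream of it and has a coding sequence of 978 bases against 4008, had 5.002 and 3.27 FPKM after IgG precipitation and 6.41 and 2.42 FPKM after KIAA1429 precipitation. The largest difference in group means within the gene, -1.82 FPKM, was that of WDR33-205, with 822 bases and an incomplete annotated end. WDR33-205 had 3.64 and 0.0241 FPKM in IgG RIP, against 0.0295 FPKM and a listed 0 in KIAA1429 RIP. Its difference thus rested on replicate 1 of IgG RIP. The group means of the gene total were 10.4 FPKM in IgG RIP and 8.70 FPKM in KIAA1429 RIP. In WDR33-201, 3746 of 9490 exonic bases (39.5%) overlap exons of SFT2D3 on the opposite strand, listed at between 0.275 and 1.997 FPKM. The other 3 listed WDR33 transcripts share no exonic base with it. Whether the counting used strand is not given in the sources used here, so reads of WDR33-201 and SFT2D3 cannot be told apart in these bases.

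CPSF3, the endonuclease, had 14.7 and 7.03 FPKM in the IgG RIP libraries, compared with 23.4 and 8.95 FPKM in those of KIAA1429 RIP. It has 1 listed transcript, CPSF3-201 (chromosome 2, 9563697 to 9613230, plus strand, 18 exons). The KIAA1429 RIP replicates differed 2.61-fold, the groups overlapped, and the log2 fold change was 0.47 with a standard error of 0.55. It was -0.17 without replicate 1 of KIAA1429 RIP. CPSF2, a catalytically inactive relative of CPSF3 in the same complex, was the lowest of the 10, with 9.96 and 4.59 FPKM in the 2 IgG RIP libraries, against 7.44 and 8.76 FPKM in the 2 of KIAA1429 RIP. The groups overlapped, and its log2 fold change was 0.21 with a standard error of 0.47. CPSF2-201 held the whole total in 3 libraries. CPSF2-202 has an incomplete annotated end and was named after its values were seen. In replicate 2 of KIAA1429 RIP it was listed at 3.19 FPKM and held 36.4% of the total, and CPSF2-201 was at 5.58 FPKM. With CPSF2-201 alone, the log2 fold change was -0.071.

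CSTF3 encodes the scaffold of CstF and is known to give short mRNAs that end within an intron. Its total was 22.4 and 8.05 FPKM after IgG precipitation and 22.3 and 9.42 FPKM after KIAA1429 precipitation, a log2 fold change of 0.10 with a standard error of 0.58. By length-weighted total the log2 fold change was 0.55, with a standard error of 0.51, and the groups overlapped at 23.4 and 11.4 for IgG RIP against 30.8 and 19.3 for KIAA1429 RIP. Replicate 1 was the higher library in each group, by 2.78-fold in IgG RIP and 2.37-fold in KIAA1429 RIP, so the groups overlapped fully. The full-length CSTF3-201 (chromosome 11, 33106130 to 33183011, minus strand, 21 exons) had 2.68 and 1.68 FPKM in the IgG RIP libraries, compared with 3.39 and 5.53 FPKM in those of KIAA1429 RIP. It was 1 of 2 member transcripts, with CSTF1-202, that were higher in both KIAA1429 RIP libraries, as were 15.2% of 23375 transcripts, with a log2 fold change of 0.77, a standard error of 0.57 and an adjusted p of 0.879 from limma. The short CSTF3-202 (33163011 to 33183037, 2 exons) had 13.9 and 1.32 FPKM in the 2 IgG RIP libraries, against 0.470 and 1.44 FPKM in the 2 of KIAA1429 RIP. The short CSTF3-203 (33162512 to 33183077, 3 exons) had 4.74 and 5.05 FPKM after IgG precipitation and 18.5 and 2.44 FPKM after KIAA1429 precipitation. In each group, replicate 1 carried the high value of 1 short transcript, CSTF3-202 in IgG RIP and CSTF3-203 in KIAA1429 RIP.

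CSTF3-202 and CSTF3-203 have coding sequences of 132 and 309 bases, against 2151 in CSTF3-201, and share 593 bases with each other, 82.9% of CSTF3-202. In the last 50 bases of both, neither AATAAA nor ATTAAA was found, and 1 TGTA lies in the last 100 bases of each. In CSTF3-201, 392 of 2812 exonic bases (13.9%) overlap exons of TCP11L1 on the opposite strand, which was listed at 14.8 and 6.63 FPKM in the IgG RIP libraries, compared with 0 and 9.33 FPKM in those of KIAA1429 RIP. Reads in these bases cannot be told apart without strand.

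CSTF1, the WD repeat subunit of CstF, had 13.1 and 4.34 FPKM in the 2 IgG RIP libraries, against 12.1 and 9.02 FPKM in the 2 of KIAA1429 RIP. The groups overlapped, with a log2 fold change of 0.40 and a standard error of 0.54. The full-length CSTF1-201 (chromosome 20, 54967450 to 54981425, plus strand) had 5.95 and 4.34 FPKM after IgG precipitation and 7.59 and 3.08 FPKM after KIAA1429 precipitation. CSTF1-202, which ends 7012 bases before it with an incomplete annotated end, had 3.68 FPKM and a listed 0 in IgG RIP, against 4.52 and 5.93 FPKM in KIAA1429 RIP. Its log2 fold change was 1.52 with a standard error of 0.91 and an adjusted p of 0.879 from limma. CSTF1-204, named after its values were seen, was at 3.49 FPKM in replicate 1 of IgG RIP and at most at 0.00317 FPKM in the other libraries. It shares 1068 bases with CSTF1-202, 86.4% of CSTF1-202, and has the same listed end. Reads from the shared bases could belong to either, so the value of CSTF1-202 in replicate 1 of IgG RIP depends on how they were split.

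Of the 31 member transcripts, 28 were of the type protein_coding, and 15 were above 0 in all 4 libraries. The 21 with a mean of at least 1 FPKM entered the transcript test, which called 0 of them, as it called 0.0% of all transcripts in either direction. At an unadjusted p under 0.05 from limma, 0 of the 21 were higher and 1, CPSF1-207, was lower, where 3.03% of all transcripts were higher and 2.33% lower. Both KIAA1429 RIP libraries were above both IgG RIP libraries in 2 of the 21 and below them in 2, CPSF1-207 and CPSF7-205, where 15.2% and 14.5% of all transcripts were. The group means were at least 2-fold higher in KIAA1429 RIP for 6 of the 21 and at least 2-fold lower for 3, against 19.9% and 20.3% of all transcripts. In CPSF7 and CSTF3, transcripts of the same gene were in both sets.

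Transcripts whose listed end lies more than 1000 bases before the last listed end of their gene were found for 6 members. Some such transcripts of CPSF7 and WDR33, and all of those of CPSF2 and CSTF1, have an incomplete annotated end. Where these truly end is not known, and the shares over all genes count such ends too. Transcripts with an upstream listed end held 88.0% and 79.2% of the CSTF3 total in IgG RIP, against 84.8% and 41.3% in KIAA1429 RIP. In WDR33 they held 77.2% and 41.6% in IgG RIP, against 75.0% and 36.1% in KIAA1429 RIP. In CSTF1 the shares were 54.7% and 0% against 37.3% and 65.8%, and in CPSF2 0% and 0% against 0% and 36.4%. The groups overlapped in these 4 genes. They lay apart in CPSF7, with 7.09% and 13.1% in IgG RIP, against 48.7% and 23.4% in KIAA1429 RIP, and in CPSF6, with 9.02% and 10.4% in IgG RIP and a listed 0 in KIAA1429 RIP, in the opposite direction. Such shares were higher in both KIAA1429 RIP libraries in 12.0% of the 5935 gene totals with such transcripts and lower in both in 15.7%. Over these 5935 gene totals the median share was from 18.6% to 22.3% in the libraries. In CPSF7, 3 of the 5 such transcripts were seen mainly in replicate 1 of KIAA1429 RIP.

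**Figure D4:**
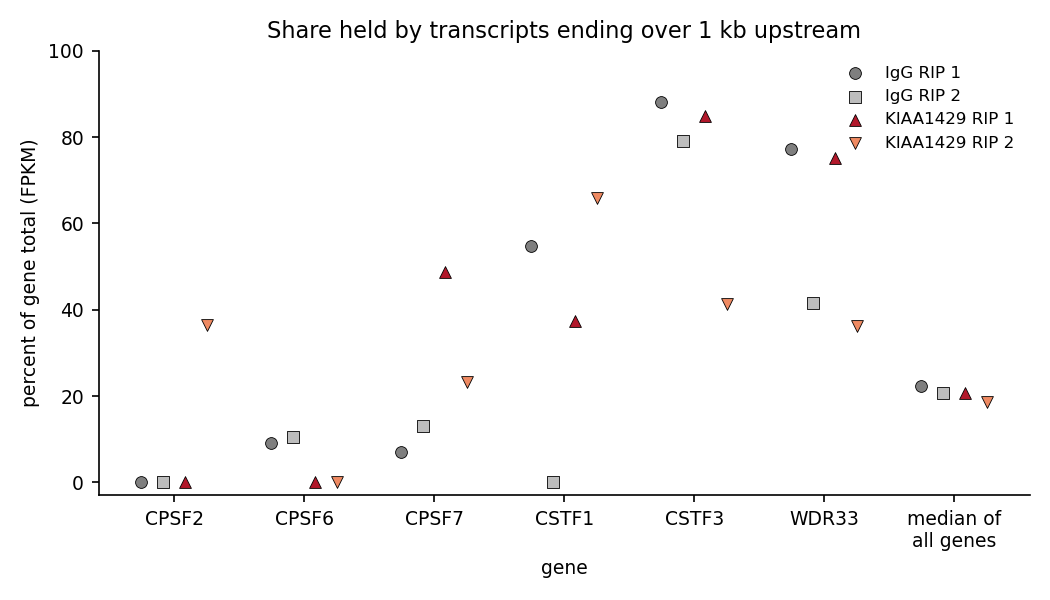
Percent of the gene total held by listed transcripts that end over 1 kb upstream of the last listed end of the gene, for the 6 genes with such transcripts and as the median over 5935 gene totals, in each of the 4 RIP libraries. CSTF3 and WDR33 lie above the median of all genes in every library, and the KIAA1429 RIP points lie above the IgG RIP points in CPSF7 and below them in CPSF6. Transcripts with an incomplete annotated end are counted, and they make up the whole share of CPSF2 and CSTF1.

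The same comparison was made for 18 other genes of 3′ end formation: CSTF2, CSTF2T, FIP1L1, SYMPK, PCF11, CLP1, PAPOLA, PAPOLG, PABPN1, PABPC1, RBBP6, SSU72, PPP1CA, PPP1CB, WDR82, XRN2, INTS9 and INTS11. All were listed and tested, 9 with a log2 fold change above 0 and 9 below, with a median of 0.037, and 0 of the 18 passed the adjusted threshold or an unadjusted p under 0.05 from limma in either direction. The highest log2 fold change, 1.53 with a standard error of 0.71, was that of PAPOLG, a nuclear poly(A) polymerase, at 2.33 FPKM and a listed 0 in IgG RIP, against 3.70 and 4.92 FPKM in KIAA1429 RIP. The lowest, -0.47 with a standard error of 0.45, was that of PCF11, a factor that also acts in transcription termination, at 9.45 and 13.1 FPKM in the IgG RIP libraries, compared with 11.02 and 5.41 FPKM in those of KIAA1429 RIP. Both genes were named after their values were seen. The other CstF subunit genes, CSTF2, which binds GU-rich RNA, and its retrogene CSTF2T, had log2 fold changes of 0.26 and 0.22 with standard errors of 0.51 and 0.42.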

How the data were processed

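The authors selected polyadenylated RNA of each precipitate, broke it chemically, prepared libraries with random primers and aligned the reads to GRCh37/hg19 by HISAT2, while the submitters' processing notes name Bowtie2 2.1.0. The authors deposited 1 FPKM value per transcript and library. The tool that estimated FPKM, its annotation and strand use are not given in the sources used here. Listed transcripts had a mean of at least 0.5001 FPKM in the higher group, and counting error cannot be given.

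FPKM was summed per gene name, and a two-sided limma test (version 3.58.1, R version 4.3.3) with a variance trend was fitted to log2(FPKM + 1) of all features with a mean of at least 1 FPKM, with p-values adjusted after Benjamini and Hochberg, after a check on simulated data. The share of true changes that the test can recover with 2 libraries per group is not given here. Count models were not run, since the files hold FPKM. Transcript lengths, coding lengths and 3′ ends came from GENCODE v44lift37, and the printed windows were compared with the GRCh37 genome. Other values were computed in Python 3.11.15 with pandas 2.3.3.

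The members and lists were chosen with earlier results of these data known. Named transcripts held at least 25% of a gene total in a group mean or had the largest difference in their gene, and the others are marked. The exception is CPSF4-201, named as the reference transcript. CPSF2-202 and CPSF6-201 are marked although each had the largest difference in its gene. The alternatives were other pseudocounts, filters, scalings, variance priors and gene units, the replicate block, and each library left out.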

Additional observations from a re-analysis of the deposited data

How the results depend on the processing

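None of the 10 genes was called under any of the alternatives run on gene totals (pseudocounts of 0.1 and 0.01, no filter, a mean of at least 5 FPKM, median scaling, quantile normalization, the replicate block, no trend, each library left out), nor with the most abundant transcript, coding transcripts only or length-weighted totals, the last of these chosen after seeing the data. Among the alternatives run on gene totals, only the replicate block called any gene total at all, and length-weighted totals called 0 in either direction. The lack of calls was thus shared by nearly all gene totals and is not particular to the members. The labels number the replicates 1 and 2 in both groups without saying what they share. The correlation of deviations of same-numbered libraries was 0.187 over gene totals, and with the replicate block 12 gene totals were called higher and 1 lower, none of them a member (adjusted p from limma 0.545 to 0.982 for the members). The unadjusted p from limma of 2 members fell under 0.05 under alternatives, CPSF4 at 0.0465 and CPSF1 at 0.0498 with the block, CPSF1 at 0.0496 with a pseudocount of 0.01 and CPSF4 at 0.00621 without replicate 1 of IgG RIP. Of 152 log2 fold changes of members under alternatives, 18 changed sign. Many of the 152 could not: no filter, a mean of at least 5 FPKM, the replicate block and no trend leave the log2 fold change as it is. The same holds for coding transcripts only in genes whose listed transcripts are all coding, and for the most abundant transcript in genes with 1. Those that changed sign with the most abundant transcript were 0.35 for CPSF1, -0.071 for CPSF2, -1.95 for CPSF7 and -0.042 for CSTF1. On that unit 1 member, CPSF7, lay lower without overlap, in place of CPSF1 and CPSF6. With length-weighted totals they were 0.042 for CPSF1, -0.048 for CPSF2 and -0.084 for CPSF7, with 1 member higher and 1 lower without overlap. Without CPSF1-207, CPSF1 was at 0.23. CSTF3 kept its direction but moved from 0.099 to 0.47 with the most abundant transcript and to 0.55 with length-weighted totals, and the median of the members moved from 0.25 to 0.17 and 0.096. With each library left out in turn, the ranges were -0.27 to 0.70 for CPSF2, -0.17 to 1.12 for CPSF3, -0.051 to 1.92 for CPSF4, -0.56 to 0.092 for WDR33, -0.040 to 0.60 for CPSF7, -0.30 to 1.10 for CSTF1, -0.59 to 0.78 for CSTF3, and -0.38 to -0.16 for CPSF6. The median of the members then ranged from -0.29 to 0.74, and the members without overlap numbered from 0 to 6 higher and from 2 to 7 lower. The called gene totals and transcripts stayed at 0 in both directions when a library was left out. A lone library is assumed to vary like the other group. The causes of these shifts were not tested. The unknown depth limits what can be said of low transcripts.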
